A study of Mus musculus with 15 samples.

Results

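The genes described here encode the subunits of the 26S proteasome and were taken by symbol. Of the 40 genes whose symbol follows the pattern Psma, Psmb, Psmc or Psmd with a number, the inducible subunits Psmb8 and Psmb9 were set aside by name. Genes were kept where at least 3 libraries held an expected count of 10 or more. That left 37 of 20325 listed genes, all of which also passed the filter of the genome-wide test. Just inside the limit lay Psma8, with expected counts of 4 to 30 and 12 libraries at 10 or more, and Psmb11, with 15.8 to 45.0 in all 15. Just outside lay Psmc3ip, which shares the pattern but encodes no subunit, with 1 to 8.

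RNA was sequenced from the livers of 15 male C57BL/6J mice aged 19 weeks, 3 per group, from stranded libraries of polyadenylated RNA. A diet rich in fat and sucrose (HF/HS) was fed to conventionally raised (ConvR) mice and to germ-free (GF) mice. On chow there were conventionalized (ConvD) mice, ConvR mice and GF mice. ConvR mice acquired their microbiota from birth and GF mice had none. ConvD mice were born GF and given cecal contents of chow-fed ConvR donors by a single gavage at 15 weeks, 4 weeks before the livers were taken. The HF/HS diet gave 44.6% of its energy as fat, 40.6% as carbohydrate and 14.8% as protein, and the chow gave 23.7%, 53.2% and 23.1%. Both were fed from 3 weeks of age and sterilized, and mice were caged by colonization status and diet in separate isolators or sealed cages. Cage and isolator therefore change with the group, and their part cannot be told apart from that of microbiota or diet.

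The proteasome degrades proteins tagged with ubiquitin. Its barrel, the 20S core, is built of outer rings of alpha subunits and inner rings of beta subunits, of which Psmb5, Psmb6 and Psmb7 carry the protease sites. Interferon-inducible subunits (Psmb8, Psmb9 and Psmb10) can take the place of these and form the immunoproteasome. A 19S cap with a base of ATPases (Psmc1 to Psmc6) and a lid receives, unfolds and feeds in the substrates, and in liver the complex takes part in the turnover of metabolic enzymes and of damaged proteins.

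Sorted by place, the 37 genes comprised 8 of the alpha ring, 4 beta subunits without a protease site, 3 standard catalytic beta subunits, and 2 further catalytic ones, Psmb10 and the thymic Psmb11. The cap contributed 6 ATPases, 2 other base subunits (Psmd1 and Psmd2), the ubiquitin receptor Psmd4, 8 lid subunits and 3 assembly chaperones that leave before the cap is complete (Psmd5, Psmd9 and Psmd10). Upstream sequences are shown for the beta subunits Psmb4 and Psmb5, the members with the largest called differences that held under every other setting, and for Psmb6 as a catalytic partner that was called in no comparison. They are the 250 bases before the annotated start (RefSeq, build GRCm38.p6; the count files use mm9), read 5′ to 3′ on the gene's strand. Capitals mark TGACNNNGC, the core of the antioxidant response element bound by the Nfe2l1 and Nfe2l2 factors.

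Psmb4, chr3:94886959-94887208, minus strand: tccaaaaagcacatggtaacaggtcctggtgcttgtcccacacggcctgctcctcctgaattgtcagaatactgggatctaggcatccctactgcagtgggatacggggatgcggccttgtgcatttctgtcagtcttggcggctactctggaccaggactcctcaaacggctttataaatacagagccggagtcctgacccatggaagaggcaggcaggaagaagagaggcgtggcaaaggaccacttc
Psmb5, chr14:54617996-54618245, minus strand: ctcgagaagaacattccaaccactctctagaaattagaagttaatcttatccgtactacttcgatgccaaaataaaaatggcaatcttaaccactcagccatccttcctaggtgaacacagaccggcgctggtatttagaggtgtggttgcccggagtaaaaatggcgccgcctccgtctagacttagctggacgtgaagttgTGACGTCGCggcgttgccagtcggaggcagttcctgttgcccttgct
Psmb6, chr11:70525107-70525356, plus strand: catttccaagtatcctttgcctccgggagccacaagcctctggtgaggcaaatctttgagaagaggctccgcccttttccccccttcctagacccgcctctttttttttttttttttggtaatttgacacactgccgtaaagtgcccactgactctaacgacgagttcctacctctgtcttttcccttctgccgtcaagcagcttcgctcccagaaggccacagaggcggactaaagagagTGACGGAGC

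In the window of 300 bases that ends 50 bases after the start, a window listed for 30 of the 37 members, TGACNNNGC was found on either strand in 5 members (16.7%), against 15.0% of 8901 tested genes with such a window. These were Psmb5, Psmb6, Psmc6, Psmd9 and Psmd12. The match in Psmb5 begins 47 bases before the start and the match in Psmb6 begins 9 bases before it. CCAAT, the box bound by NF-Y, was found on either strand in 12 of 30 members (40.0%) and in 39.1% of the 8901 genes. None of the 3 genes printed held CCAAT, and no base of the capitals shown belongs to a CCAAT match. Both shares lie near those of all tested genes.

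All 15 livers transcribed the standard complex at a similar level per gene. Over the 15 libraries, the 31 subunits of the standard complex averaged between 54.2 TPM (transcripts scaled for gene length and library size) for the deubiquitinase Psmd14 and 202 TPM for the catalytic Psmb7, a span of 3.74-fold. After Psmb7 came Psmb4 with 179 ± 31 TPM and Psma4 with 159 ± 13 TPM (SD, n = 15 libraries). Psma7, Psmb3, Psmb5, Psmb6, Psma6 and Psmb1 followed between 145 and 138 TPM, closer to each other than their SDs of 13.5 to 26.8. The median of the alpha subunits Psma1 to Psma7 was 121 TPM and that of the beta subunits Psmb1 to Psmb7 was 143 TPM. The ATPases had a median of 84.7 TPM and the lid subunits one of 67.3 TPM.

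Below the standard complex came Psmb10 with 27.5 ± 3.6 TPM, Psmd5 with 24.8 ± 3.0, Psmd9 with 20.2 ± 4.8 and Psmd10, which also goes by the name gankyrin, with 10.6 ± 1.3. The testis subunit Psma8 had 0.79 ± 0.30 TPM and Psmb11, the catalytic subunit of the thymic cortex, 0.55 ± 0.15 TPM. Both of these rest on 45 or fewer counts per library.

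**Figure D1:**
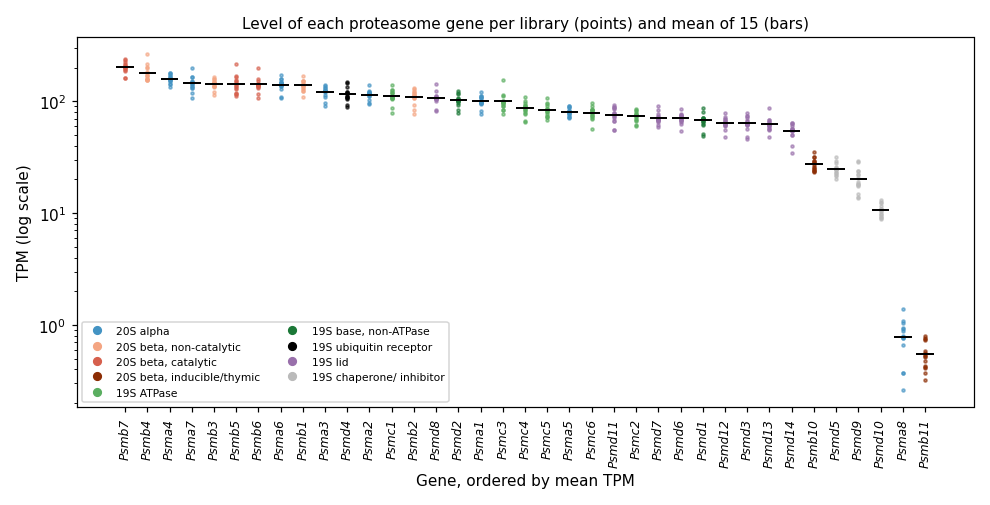
TPM of each of the 37 genes (log axis) in each library (points) with the mean of 15 libraries (bars), ordered by mean and coloured by place in the complex. The standard subunits lie between 54.2 and 202 TPM, the assembly chaperones and Psmb10 between 10.6 and 27.5, and Psma8 and Psmb11 below 1.

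The median member varied slightly less between livers than the median gene of the same level. On the scale of CPM (read counts scaled to library size with TMM factors), the highest library over the lowest came to 1.17 for the lid subunit Psmd7, 1.43 in the median member and 1.93 for Psmb5, over the 35 members with at least 100 counts in every library. The median coefficient of variation over the 15 libraries was 10.01% for these members and 12.6% for 6741 genes of the same mean level. By member it ran from 4.9% for Psmd7 to 20.6% for Psmb4. Psmd7 had 71.3, 72.1 and 67.2 CPM in ConvR HF/HS livers, 66.7, 66.5 and 67.9 in GF HF/HS livers, 65.5, 67.5 and 65.6 in ConvD chow livers, 68.6, 71.7 and 70.6 in ConvR chow livers, and 76.7, 70.0 and 75.2 in GF chow livers. For this gene GF chow mice 1 and 3 lay above every other library.

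The genes moved together from liver to liver. The median pairwise correlation of the 35 members over the 15 libraries was 0.48, against 0.01 for the 6741 genes of the same level, as a description, since all pairs share the libraries, their depth and their trend with gene length. Psmb7 followed the mean of the other members most closely, with r = 0.96, then Psma7 with 0.94, Psma1 with 0.91 and Psmb1 and Psmd6 with 0.90. With the group means taken out, these values were 0.92, 0.84, 0.90, 0.84 and 0.83. At the other end stood Psmb2 with -0.32, Psmd10 with -0.03, Psmd11 with 0.05, Psmc6 with 0.12 and Psmd9 with 0.17. Psmb2, an inner-ring subunit without a protease site, had 38.7 CPM in the first GF chow mouse, and 50.8 to 59.0 CPM in the other 14 livers. In that same mouse Psmc3 stood at 158.2 CPM, against 84.0 to 111.7 CPM in the other 14.

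On TMM-scaled CPM the members stood highest, on average, in GF livers on chow, an order that depended on the scaling. Relative to the mean of the 15 libraries, the median member stood at 0.00, -0.08 and -0.09 (log2 CPM) in ConvR HF/HS livers and at -0.09, -0.02 and -0.01 in GF HF/HS livers. It stood at -0.07, -0.04 and 0.04 in ConvD chow livers, at -0.11, -0.05 and 0.14 in ConvR chow livers, and at 0.17, 0.06 and 0.17 in GF chow livers. The third ConvR chow mouse thus overlapped the GF chow range. Of the 35 members, 26 had their highest group mean in GF chow, where 29.6% of genes of the same level did. Of the other 9, 3 had it in GF HF/HS, 2 in ConvD chow, 4 in ConvR chow and none in ConvR HF/HS. On TPM values 19 of the 35 had their highest group mean in ConvR HF/HS, where 57.4% of genes of the same level did, 14 in GF chow, where 16.0% did, and 2 in ConvD chow. The summed TPM of all 37 averaged 3640 ± 316 in ConvR HF/HS livers, 3223 ± 58 in GF HF/HS livers, 3483 ± 80 in ConvD chow livers, 2956 ± 362 in ConvR chow livers and 3649 ± 248 in GF chow livers (SD, n = 3 each).

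**Figure D2:**
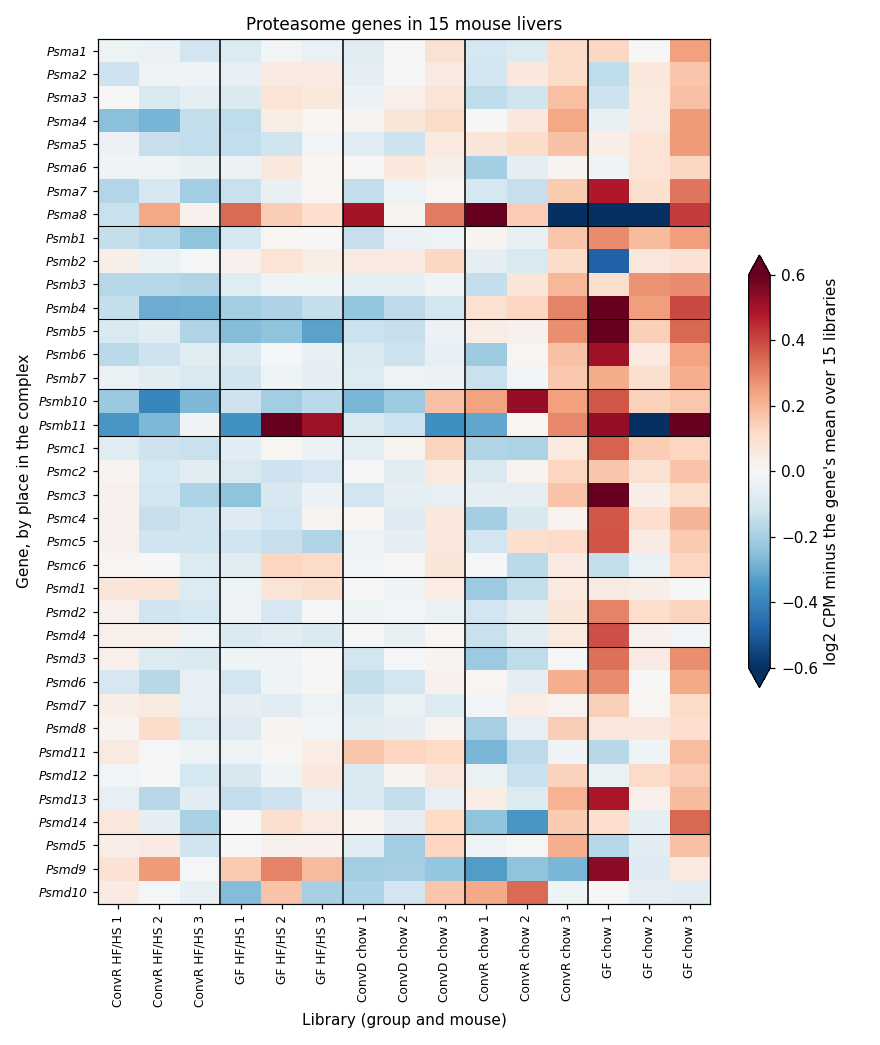
log2 CPM of the 37 genes (rows, by place in the complex) in each of the 15 libraries (columns, by group), minus each gene's mean over the 15 libraries. The GF chow columns are mostly above 0 (medians 0.17, 0.06 and 0.17), with Psmb2 low in the first GF chow mouse, and the rows of Psma8 and Psmb11 vary most.

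These values run beside a trend with gene length that differs between libraries. Proteasome genes are short: their lengths run from 731 to 4247 bases with a median of 1436, against 2800 for the tested genes, and 34 of the 37 are shorter than that median. Across genes, the rank correlation of length with level in a library relative to the mean of all was 0.10 to 0.38 in ConvR HF/HS livers, 0.12 to 0.28 in GF HF/HS livers and 0.12 to 0.29 in ConvD chow livers. It was -0.42 to 0.06 in ConvR chow livers and -0.45 to -0.19 in GF chow livers, so short genes stood high in all 3 GF chow libraries and in ConvR chow mice 2 and 3. What part this trend has in the results was not tested beyond its removal, and values with the length trend removed are given beside them. A second feature is that the summed level of 8 acute-phase genes was 41061, 54347 and 5363 CPM in the ConvR chow mice and 2611 to 4961 CPM in the other 12. The first 2 ConvR chow mice stood apart in this sum. The third had Saa1 at 2099 and Lcn2 at 136 TPM, against at most 333 and 49.7 TPM in the other 12. Its Hp and Crp lay within the range of the other 12. Leaving out the first 2 thus keeps 1 ConvR chow mouse, itself raised in some of these genes. Summed hepatocyte markers (5 of 5 detected) were 50174 and 44559 CPM in ConvR chow mice 1 and 2 and 76270 to 117829 CPM in the others. By gene, Alb (25322.5 and 20163.4 TPM) and Ttr (3464.79 and 3159.86 TPM) were lowest in ConvR chow mice 1 and 2. Apoa1 (8212 and 7204 TPM) stood near its lowest value elsewhere, 7728 TPM. Tat (1314 and 1223 TPM) and Cps1 (978 and 752 TPM) lay within the range of the other livers. Expected counts summed to 14737578 to 21794811 per library.

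Conventionally raised against germ-free livers on chow asks what a lifelong microbiota goes with. There, 2 of 37 members fell and none rose (edgeR quasi-likelihood test, adjusted p below 0.05 over 12377 genes), where 2.17% of all genes fell and 2.55% rose. The lid subunit Psmd3 had 72.8, 76.2 and 84.3 CPM in ConvR livers and 106.5, 87.7 and 102.8 CPM in GF livers, without overlap, and fell by 0.35 on the log2 scale (SE 0.09, adjusted p = 0.0373). The chaperone Psmd9 had 25.4, 27.1 and 26.5 CPM in ConvR livers, against 46.7, 30.4 and 33.4 CPM in GF livers, again without overlap, and fell by 0.48 (SE 0.13, adjusted p = 0.0452). The first GF mouse stood highest for both. In bulk liver RNA, fewer cells of a type and less RNA per cell cannot be told apart.

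The catalytic subunits did not pass the test between ConvR and GF livers on chow. Their log2 differences were -0.27 for Psmb5 (adjusted p = 0.159), -0.28 for Psmb6 (adjusted p = 0.145) and -0.17 for Psmb7 (adjusted p = 0.218), each with an SE of 0.08 to 0.11. Psmb10 differed by 0.12 (SE 0.12, adjusted p = 0.581). Fitted differences were below 0 in 31 of 37 members and in 50.5% of all genes, with medians of -0.15 and 0.00, and CPM ranges lay wholly below the GF ones in 6 members, where 9.74% of all genes did so. By place, the ATPases (6 of 6) and the lid (8 of 8) were all fitted below 0, with medians of -0.22 and -0.13. With the length trend removed the members' median was -0.06 and 1 member, Psmd3, was called. Without the 2 high acute-phase mice, which leaves 1 ConvR chow mouse, the members' median was -0.03. The call of Psmd3 was lost without GF mouse 1 or 3 or ConvR mouse 1 or 2 (adjusted p = 0.0701 to 0.148). That of Psmd9 was lost without the first GF mouse or either of those ConvR mice (adjusted p = 0.0967 to 0.154).

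Livers 4 weeks after colonization were set against germ-free ones on the same chow. Here 3 members fell and none rose, where 3.34% of all genes fell and 2.25% rose, and all 3 were subunits of the beta ring. Psmb4 had 85.1, 89.5 and 92.6 CPM in ConvD livers and 151.1, 118.8 and 131.6 CPM in GF livers. Every ConvD mouse lay below every GF mouse, and the gene fell by 0.59 (SE 0.09, adjusted p = 0.0063). This call was kept in all 22 alternative settings, with log2 differences of -0.67 to -0.40 and adjusted p of at most 0.0440. Catalytic Psmb5, which cuts after hydrophobic residues, had 65.9, 65.4 and 70.3 CPM in ConvD livers, against 111.4, 79.6 and 91.6 CPM in GF livers, and fell by 0.49 (SE 0.11, adjusted p = 0.0238). The first GF mouse was again the highest. Psmb1, which carries no protease site, had 77.6, 83.3 and 83.7 CPM in ConvD livers and 103.9, 97.4 and 101.6 CPM in GF livers, and fell by 0.31 (SE 0.08, adjusted p = 0.0321).

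The other catalytic subunits differed between ConvD and GF livers by -0.37 for Psmb6 (adjusted p = 0.0628) and -0.23 for Psmb7 (adjusted p = 0.103), and Psmb10 by -0.32 (adjusted p = 0.121), none of them called. Fitted differences were below 0 in 32 of 37 members, with a median of -0.17 against -0.01 in all genes, and 16 members had ConvD ranges wholly below the GF ones, where 14.8% of all genes did. The medians by place ran from -0.37 in the catalytic beta subunits and -0.29 in the other beta subunits to -0.19 in the ATPases, -0.14 in the lid and -0.03 in the alpha ring. With the length trend removed, the members' median was -0.06 and Psmb4 alone was called, at -0.40 (adjusted p = 0.0173). On log2(TPM + 1) values it was -0.04, where that of all genes was 0.10. The calls of Psmb5 and Psmb1 were lost without the first GF mouse or any 1 of the ConvD mice (adjusted p = 0.0547 to 0.0916 for Psmb5 and 0.0635 to 0.124 for Psmb1).

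**Figure D3:**
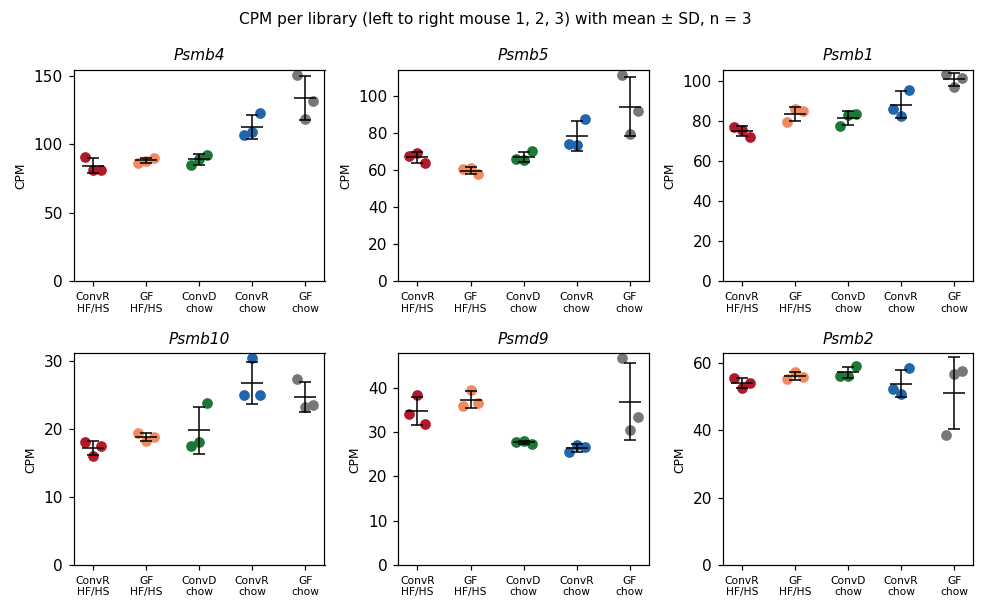
CPM of 6 members in each liver (points, mice 1 to 3 from left to right within a group) with mean ± SD (n = 3 mice), y axis from 0. Psmb4 lies at 81.3 to 92.6 CPM in the HF/HS and ConvD livers, at 106.6 to 122.7 in ConvR chow livers and at 118.8 to 151.1 in GF chow livers, while Psmb2 is low in 1 GF chow mouse.

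Between the 2 colonized groups on chow, 2 members fell in ConvD relative to ConvR livers and none rose, where 3.30% of all genes fell and 2.20% rose. Psmb4 averaged 89.0 ± 3.8 CPM in ConvD livers and 112.8 ± 8.7 CPM in ConvR livers (SD, n = 3 each) and fell by 0.34 (SE 0.09, adjusted p = 0.0481). The ranges did not touch, with 92.6 as the highest ConvD and 106.6 as the lowest ConvR value. Psmb10, the inducible counterpart of Psmb7, had 17.4, 18.1 and 23.7 CPM in ConvD livers, against 24.9, 30.3 and 25.0 CPM in ConvR livers, and fell by 0.44 (SE 0.12, adjusted p = 0.0483). The third ConvD mouse lay just below the ConvR range. Psmb5, Psmb6 and Psmb7 differed by -0.22, -0.09 and -0.06, with adjusted p of 0.232, 0.680 and 0.701. The median difference was -0.03 over the members (0.07 without scaling factors, where all genes stood at 0.10) and -0.01 over all genes, with 5 members below and 2 above without overlap, where 15.1% of all genes lay below and 15.1% above. Both calls were lost under DESeq2 size factors, and Psmb4's was lost with any 1 of the 6 mice left out (adjusted p = 0.0778 to 0.162), Psmb10's without the first or second mouse of either group (adjusted p = 0.0852 to 0.212). On TPM values, which the acute-phase transcripts of 2 ConvR mice share, 13 members were called higher in ConvD livers, where 28.5% of all genes were, and the median member stood at 0.25 beside 0.21 for all genes.

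On the HF/HS diet, ConvR and GF livers did not differ in any member at adjusted p below 0.05. Of all genes, 0.881% were called higher and 0.735% lower. No member had an unadjusted p below 0.05 either, where 1876 of 12377 genes did. DESeq2, and limma on log2(TPM + 1), also called no member. The 3 members with the smallest p were Psma4, Psmb1 and Psmb11. Psma4, of the alpha ring, had 87.9, 86.3 and 94.8 CPM in ConvR livers and 94.1, 108.1 and 105.6 CPM in GF livers, overlapping by less than 1 CPM, and differed by -0.19 (SE 0.09, adjusted p = 0.349). Psmb1 averaged 75.1 ± 2.6 CPM in ConvR livers and 83.6 ± 3.6 CPM in GF livers (SD, n = 3 each), a difference of -0.15 (SE 0.08, adjusted p = 0.353). Psmb11 had 1.2 ± 0.2 CPM in ConvR livers and 1.8 ± 0.6 CPM in GF livers, a difference of -0.52 with an SE of 0.31 (adjusted p = 0.470). Psmb5, Psmb6, Psmb7 and Psmb10 differed by 0.16, -0.07, 0.00 and -0.13, each within 1.5 SEs. The median over the members was -0.03, that over all genes -0.01, and 4 members lay below and 3 above without overlap, where 14.6% and 12.7% of all genes did. Without scaling factors the members' median was 0.14 and on TPM values 0.17, where all genes stood at 0.16 in both.

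Among conventionally raised mice, HF/HS feeding was set against chow. Of the members, 3 fell and 1 rose on HF/HS, where 7.80% of all genes fell and 6.75% rose. Psmb10 had 18.1, 16.0 and 17.5 CPM in HF/HS livers and 24.9, 30.3 and 25.0 CPM in chow livers, and fell by 0.64 (SE 0.12, adjusted p = 0.0036), the largest called difference in this comparison. Psmb4 had 90.6, 81.3 and 81.5 CPM in HF/HS livers, against 106.6, 109.1 and 122.7 CPM in chow livers, and fell by 0.42 (SE 0.09, adjusted p = 0.0089). Neither gene's groups overlapped. Psma4 had 87.9, 86.3 and 94.8 CPM in HF/HS livers, against 105.0, 109.5 and 123.1 CPM in chow livers, and fell by 0.33 (SE 0.09, adjusted p = 0.0315). Psmd9 ran the other way, with 34.0, 38.3 and 31.9 CPM in HF/HS livers and 25.4, 27.1 and 26.5 CPM in chow livers, and rose by 0.40 (SE 0.13, adjusted p = 0.0482).

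The standard catalytic subunits differed between HF/HS and chow ConvR livers by -0.23 (Psmb5), -0.12 (Psmb6) and -0.07 (Psmb7), with adjusted p of 0.170 to 0.575. Psmb10 as a share of Psmb10 and Psmb7 TPM together was 10.7%, 9.7% and 10.7% in HF/HS livers, against 15.0%, 16.5% and 12.6% in chow livers. This share does not depend on library scaling, and the first 2 chow mice, those with high acute-phase transcripts, had the highest values of all 15. Psmb10 is also made by immune cells. Summed pan-leukocyte markers (4 of 4 detected) were 46.4 to 66.0 CPM in HF/HS livers and 41.5 to 57.0 CPM in chow livers. Of 6 monocyte and neutrophil markers, 4 passed the filter and were summed, without Mpo and Elane, which were at 0 in some libraries. The sum of the 4 was 2.9 to 4.7 CPM in HF/HS livers, against 4.9 to 31.1 CPM in chow livers. By gene, S100a8 (30.3, 43.5 and 5.7 TPM) and S100a9 (31.5, 52.1 and 6.9 TPM) in chow livers lay above the HF/HS livers. Ly6c2 and Ccr2 overlapped between the diets. The part of these markers in the result was not tested.

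Over all members, the HF/HS against chow median in ConvR mice was -0.07 (all genes -0.02), with 7 members below and 1 above without overlap, where 17.2% and 15.1% of all genes were. This direction turned with the scaling: without scaling factors the median was 0.12, where that of all genes was 0.19, and on TPM values it was 0.32, where that of all genes was 0.30. TPM values called 22 members higher, beside 47.1% of all genes. Without scaling factors 5 members were called higher and 1 lower. The share of all genes called there is not given, so no excess of members is read from these counts. The calls of Psmb10 and Psmb4 held with any 1 mouse left out and with the length trend removed (adjusted p = 0.0088 and 0.0197). That of Psmb10 was lost without the 2 high acute-phase mice, where 1 ConvR chow mouse was left. That of Psmb4 was lost without scaling factors (adjusted p = 0.133). On TPM values the differences of Psmb10 and Psmb4 were -0.23 (adjusted p = 0.104) and -0.02 (adjusted p = 0.905), and that of Psma4 was 0.07. The call of Psma4 was lost without chow mouse 2 or 3 or HF/HS mouse 1 or 2 (adjusted p = 0.0605 to 0.105), that of Psmd9 without any 1 of the 6 (adjusted p = 0.0502 to 0.174).

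Germ-free mice allow the same diets to be compared with no microbiota present. Here HF/HS feeding went with 7 lower members and none higher, where 5.45% of all genes fell and 4.10% rose. An unadjusted p below 0.05 was found for 20 of 37 members and for 3244 of 12377 genes. Psmb5 had 60.3, 61.0 and 57.6 CPM in HF/HS livers and 111.4, 79.6 and 91.6 CPM in chow livers, and fell by 0.66 (SE 0.11, adjusted p = 0.0047). Psmb4 had 86.8, 87.9 and 90.3 CPM in HF/HS livers, against 151.1, 118.8 and 131.6 CPM in chow livers, and fell by 0.60 (SE 0.09, adjusted p = 0.0038). Even the lowest chow mouse stood well above the highest HF/HS mouse for both genes. Both calls held in all 22 alternative settings, with adjusted p of at most 0.0293 for Psmb5 and 0.0239 for Psmb4. With the length trend removed they fell by 0.45 and 0.40.

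Of the cap's ATPases, Psmc5 averaged 58.0 ± 1.3 CPM in GF HF/HS livers and 73.7 ± 8.7 CPM in GF chow livers (SD, n = 3 each) and fell by 0.35 (SE 0.09, adjusted p = 0.0327). Psmc2 averaged 75.2 ± 0.8 CPM in HF/HS livers and 89.4 ± 2.8 CPM in chow livers and fell by 0.25 (SE 0.07, adjusted p = 0.0476). Psmb1 had 79.5, 86.0 and 85.3 CPM in HF/HS livers, against 103.9, 97.4 and 101.6 CPM in chow livers, and fell by 0.27 (SE 0.08, adjusted p = 0.0366). The alpha subunit Psma7 had 67.9, 72.3 and 75.1 CPM in HF/HS livers, against 103.9, 79.6 and 93.1 CPM in chow livers, and fell by 0.36 (SE 0.10, adjusted p = 0.0414). Within these 4 genes no HF/HS value reached a chow value. The lid subunit Psmd13 was the seventh, at 55.3 ± 2.0 CPM in HF/HS livers and 70.7 ± 11.6 CPM in chow livers (log2 difference -0.35, SE 0.11, adjusted p = 0.0494). Psmc3 had a fitted difference of -0.42 but an SE of 0.14 (adjusted p = 0.0695), since the first chow mouse stood at 158.2 CPM and the others at 101.9 and 106.9.

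Psmb6, Psmb7 and Psmb10 missed the threshold in the diet comparison of GF mice, at -0.33 (adjusted p = 0.0722), -0.25 (adjusted p = 0.0667) and -0.39 (adjusted p = 0.0557). The members' median was -0.22, against -0.01 for all genes, and 21 of 37 had HF/HS ranges wholly below the chow ones, where 16.2% of all genes did. By place, the median was -0.33 in the catalytic beta subunits, -0.27 in the other beta subunits, -0.27 in the ATPases, -0.12 in the lid, -0.09 in the alpha ring and 0.02 in the chaperones. This median stayed below 0 under every scaling (-0.24 without scaling factors and -0.16 on TPM values, where all genes stood at -0.03 and 0.03). With the length trend removed it was -0.05, and Psmb4 and Psmb5 were the members called. Without the first chow mouse the calls of Psmc5, Psmc2, Psmb1, Psma7 and Psmd13 were lost, as they were without any 1 of the HF/HS mice, and all but that of Psmc5 without the third chow mouse (adjusted p = 0.0594 to 0.152 over these genes and mice).

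**Figure D4:**
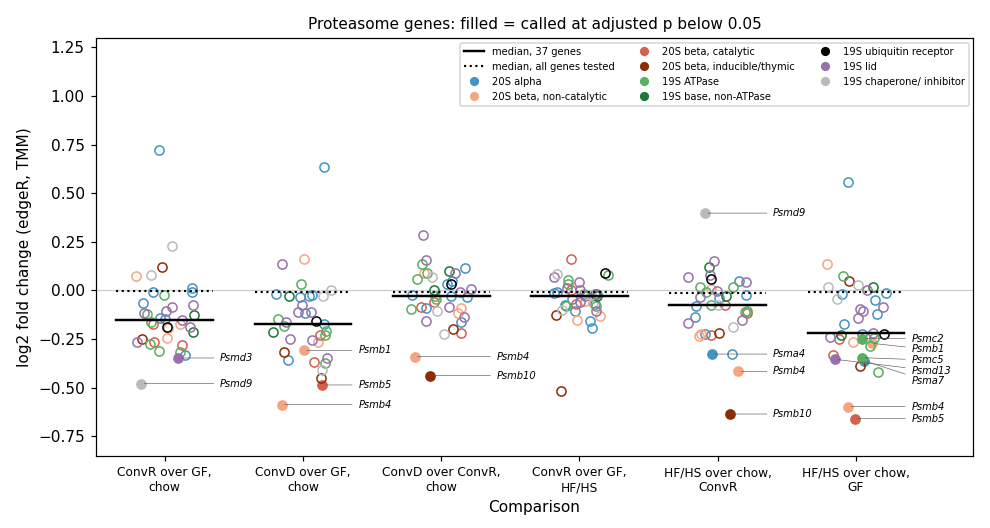
log2 fold change of the 37 members in the 6 group comparisons (points, coloured by place, filled where called at adjusted p below 0.05), with the median of the members (solid bar) and of all tested genes (dotted bar). Of 18 called values, 17 lie below 0, Psmd9 on HF/HS in ConvR mice lies at 0.40, and the member medians run from -0.22 to -0.03.

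**Figure D5:**
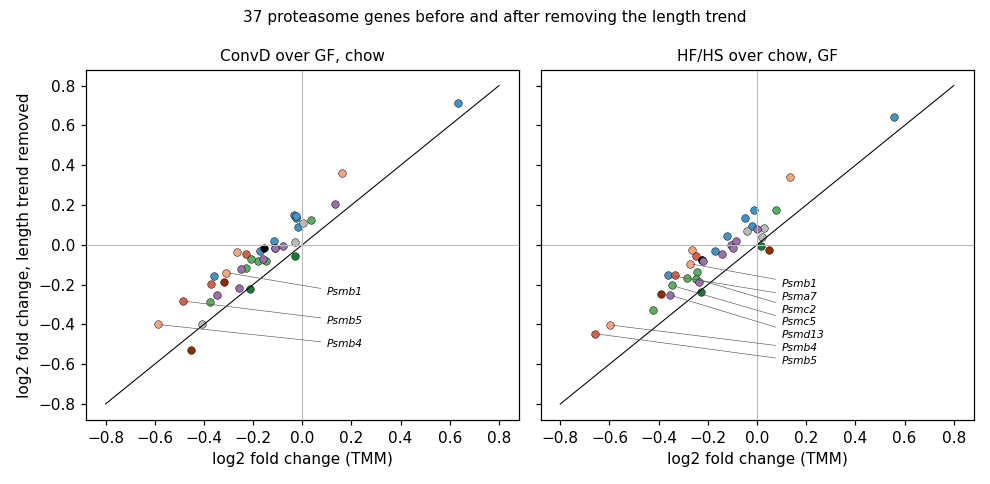
log2 fold change of the 37 members before (x axis) and after (y axis) the trend with gene length was removed, coloured by place as in the plot of fold changes, with the line of equality and the called members named. Most points lie above the line, and the members' median moves to -0.06 for ConvD over GF livers on chow and to -0.05 for HF/HS over chow in GF livers, and Psmb4 moves to -0.40 in both.

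Whether the diet difference itself depended on the microbiota was tested as an interaction. No member and 0.00% of all genes passed, whereas 3 members and 1573 genes had an unadjusted p below 0.05, and DESeq2 also called no member. The 3 were Psmb5 with 0.43 (SE 0.15, adjusted p = 0.292), Psmd3 with 0.32 (SE 0.12, adjusted p = 0.315) and the ATPase Psmc4 with 0.30 (SE 0.13, adjusted p = 0.343), a positive value meaning a less negative or more positive HF/HS difference in ConvR than in GF mice. The interaction of Psmb10 was -0.25 (SE 0.17, adjusted p = 0.573). The members' median was 0.14, against 0.00 in all genes, and 0.02 without the first 2 ConvR chow mice. On TPM values 12 members passed, all upward, where 9.42% of all genes passed upward, and the median was 0.48, where all genes stood at 0.27. A different call in ConvR and GF mice is therefore not shown to be a different response for any member by the count test.

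Across the 7 tests, 18 of 259 values were called, 17 lower and 1 higher, in 11 of the 37 genes. Depending on the test, 0.00% to 7.80% of all genes were called lower and 0.00% to 6.75% higher. Psmb4 was called in 4 comparisons, Psmb1, Psmb5, Psmb10 and Psmd9 in 2 each, and Psma4, Psma7, Psmc2, Psmc5, Psmd3 and Psmd13 in 1. The comparisons with GF chow livers share those 3 libraries, and those with ConvR chow livers share theirs, so the repeated calls of Psmb4 are not independent. The other 26 genes were called in none, among them Psma1, Psma2, Psma3, Psma5, Psma6 and Psma8 of the alpha ring, Psmb2, Psmb3, Psmb6, Psmb7 and Psmb11 of the beta ring, and Psmc1, Psmc3, Psmc4 and Psmc6 of the ATPases. The cap members without a call were Psmd1, Psmd2, Psmd4, Psmd6, Psmd7, Psmd8, Psmd11, Psmd12 and Psmd14 and the chaperones Psmd5 and Psmd10.

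The balance of beta to alpha transcripts differed between groups. Summed TPM of Psmb1 to Psmb7 over that of Psma1 to Psma7, a ratio that library scaling cannot move, was 1.22, 1.198 and 1.18 in ConvR HF/HS livers and 1.203, 1.16 and 1.14 in GF HF/HS livers. It was 1.18, 1.15 and 1.15 in ConvD chow livers, 1.26, 1.26 and 1.28 in ConvR chow livers, and 1.47, 1.31 and 1.27 in GF chow livers. All 6 livers of ConvR chow and GF chow mice lay above all 9 others. The beta genes are a little shorter than the alpha genes, with median lengths of 949 and 1096 bases, and 5 of these 6 libraries, all but ConvR chow mouse 1, are those in which short genes stood high. The beta sum also holds Psmb4 and Psmb5, which were called in 4 and 2 comparisons, so the ratio does not stand apart from those calls. The part of these genes and of gene length in the ratio was not tested.

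Psmb8 and Psmb9, the inducible partners left out of the set, were called in no comparison. Psmb8 had 22.7 ± 1.7 CPM in ConvR HF/HS livers, 24.4 ± 1.0 in GF HF/HS livers, 21.1 ± 4.6 in ConvD chow livers, 27.0 ± 4.2 in ConvR chow livers and 25.0 ± 2.2 in GF chow livers (SD, n = 3 each). Psmb9 lay between 9.0 and 13.4 CPM in all 15. The activator subunits Psme1 and Psme2, which open the core's gate, fell on HF/HS. In ConvR mice Psme1 averaged 51.2 ± 2.4 CPM on HF/HS and 70.9 ± 5.4 CPM on chow and fell by 0.47 (SE 0.10, adjusted p = 0.0063), and Psme2 fell by 0.43 (adjusted p = 0.0087). In GF mice Psme1 averaged 57.7 ± 3.8 CPM on HF/HS and 77.6 ± 9.1 CPM on chow and fell by 0.43 (adjusted p = 0.0189), and Psme2 fell by 0.41 (adjusted p = 0.0200). Without the first 2 ConvR chow mice, where 1 ConvR chow mouse was left, neither call held in ConvR mice. On TPM values none of the 4 calls held. The calls of Psme1 and Psme2 in GF mice were lost with the length trend removed (adjusted p = 0.121 and 0.208). In GF mice the call of Psme1 was lost without HF/HS mouse 1 or 3 and that of Psme2 without any 1 of the HF/HS mice or the first chow mouse (adjusted p = 0.0575 to 0.0817). In the list of 6 inducible and activator genes these were the only calls, 2 of 6 in each diet comparison. Of all genes, 7.80% fell on HF/HS in ConvR mice and 5.45% in GF mice.

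Pomp, the maturation protein that closes the core's assembly, followed Psmb4. It had 74.6, 70.2 and 69.0 CPM in ConvR HF/HS livers and 73.4, 73.9 and 67.9 CPM in GF HF/HS livers. On chow it had 71.8, 73.8 and 72.4 CPM in ConvD livers, 91.6, 86.9 and 86.5 CPM in ConvR livers, and 101.7, 93.3 and 102.9 CPM in GF livers. It fell by 0.45 in ConvD relative to GF livers (adjusted p = 0.0063) and by 0.28 in ConvD relative to ConvR livers (adjusted p = 0.0352). On HF/HS it fell by 0.31 in ConvR mice (adjusted p = 0.0094) and by 0.47 in GF mice (adjusted p = 0.0028). With the length trend removed none of these 4 was called (adjusted p = 0.0779 to 0.205). The call of ConvD against ConvR livers was also lost without the first or second ConvR mouse or any 1 of the ConvD mice (adjusted p = 0.0897 to 0.119). On TPM values its difference on HF/HS in ConvR mice was 0.09. Of the 12 genes of assembly and association, none rose in these comparisons. The number that fell was 2 in ConvD relative to GF livers (3.34% of all genes), 1 in ConvD relative to ConvR livers (3.30%), 2 on HF/HS in ConvR mice (7.80%) and 3 on HF/HS in GF mice (5.45%). The others were Shfm1, a small lid component, which fell by 0.51 in ConvD relative to GF livers (adjusted p = 0.0465) and by 0.47 on HF/HS in GF mice, the chaperone gene Psmg2, which fell by 0.43 on HF/HS in ConvR mice, and Psmg3, which fell by 0.40 on HF/HS in GF mice. Both calls of Shfm1 were lost without the first GF chow mouse or any 1 mouse of the other group (adjusted p = 0.0838 to 0.150), and without the first GF chow mouse its differences were -0.26 and -0.21. The call of Psmg2 was lost without ConvR chow mouse 1 or HF/HS mouse 3 (adjusted p = 0.0550 and 0.0738), and that of Psmg3 without any 1 of 5 of the 6 mice compared (adjusted p = 0.0594 to 0.112). All 4 of these calls were lost with the length trend removed.

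Of 10 genes that control proteasome transcription, Nfe2l1, the factor that raises proteasome genes when the complex is inhibited, was called in no comparison. It averaged 156 ± 14 CPM in ConvR HF/HS livers, 133 ± 7 in GF HF/HS livers, 131 ± 12 in ConvD chow livers, 143 ± 22 in ConvR chow livers and 116 ± 11 in GF chow livers. A relation of its level to that of the members was not tested. Nfe2l2, the factor of the oxidative stress response, averaged 62.2 ± 2.9 CPM on HF/HS and 46.5 ± 3.4 CPM on chow in ConvR mice and rose by 0.42 (SE 0.09, adjusted p = 0.0093). This call was lost without the 2 high acute-phase chow mice, where 1 ConvR chow mouse was left. Mafg, a small Maf partner of both factors, fell by 0.66 in ConvD relative to GF livers on chow (adjusted p = 0.0234) and by 0.61 on HF/HS in GF mice (adjusted p = 0.0202), each time with GF chow values of 29.4 ± 5.9 CPM. With the length trend removed both missed the threshold (adjusted p = 0.0556 and 0.0546), as they did without the first GF chow mouse or any 1 mouse of the other group (adjusted p = 0.0560 to 0.0812). No other gene of this list was called.

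Of 14 genes of ubiquitin supply and delivery, Rps27a, which encodes ubiquitin fused to a ribosomal protein, fell by 0.34 in ConvR relative to GF livers on HF/HS (adjusted p = 0.0461). It fell by 0.57 on HF/HS in ConvR mice (adjusted p = 0.0006), with 104.6 ± 5.4 CPM on HF/HS and 155.4 ± 2.6 CPM on chow, and by 0.28 on HF/HS in GF mice (adjusted p = 0.0417, and 0.779 with the length trend removed). The last of these calls was lost without any 1 of 5 of the 6 mice compared (adjusted p = 0.0512 to 0.160). Ubqln4 rose by 0.34 in ConvR relative to GF livers on HF/HS (adjusted p = 0.0349) and Uba6, an activating enzyme for ubiquitin, rose by 0.60 on HF/HS in GF mice (adjusted p = 0.0153). In ConvD relative to GF livers Ubqln2 rose by 0.37 (adjusted p = 0.0462) and Ufd1l fell by 0.31 (adjusted p = 0.0423), and in ConvR mice Ubqln1 rose by 0.29 on HF/HS (adjusted p = 0.0311). The calls of Rps27a and Ubqln4 between ConvR and GF livers on HF/HS and that of Ufd1l were lost with any 1 of the 6 mice compared left out (adjusted p = 0.05003 to 0.222). Those of Ubqln2 and Ubqln1 were lost without any 1 of 5 of the 6 mice compared, with adjusted p of up to 0.155 and 0.106, and that of Uba6 without the first or second GF HF/HS mouse (adjusted p = 0.0504 and 0.0656). Of 10 heat shock chaperones none was called in any comparison.

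Of 14 interferon response and antigen presentation genes, 1 or 2 were called in 3 comparisons. In ConvD relative to GF livers 1 fell (3.34% of all genes), and in ConvD relative to ConvR livers 1 fell (3.30%). On HF/HS in ConvR mice 1 fell (7.80% of all genes) and 1 rose (6.75%). Irf1, a transcription factor of the immunoproteasome genes, fell by 0.89 in ConvD relative to ConvR livers on chow (adjusted p = 0.0369). It also fell by 0.85 on HF/HS in ConvR mice (adjusted p = 0.0197). Both comparisons share the ConvR chow libraries, and a link of Irf1 to Psmb10 or the other inducible subunits was not tested. Irf1 averaged 19.3 ± 1.4 CPM in ConvR HF/HS livers, 18.9 ± 6.4 in ConvD chow livers and 34.9 ± 9.7 in ConvR chow livers. Without the 2 high acute-phase mice, where 1 ConvR chow mouse was left, its differences were -0.33 and -0.30. The first call was lost without ConvR or ConvD mouse 1 or 2 (adjusted p = 0.124 to 0.164) and the second without ConvR chow mouse 1 or 2 or HF/HS mouse 2 (adjusted p = 0.0797 to 0.0833). The peptide transporter gene Tap1 rose by 0.52 on HF/HS in ConvR mice (adjusted p = 0.0223), and Isg15, a ubiquitin-like protein, fell by 0.69 in ConvD relative to GF livers (adjusted p = 0.0483). The call of Tap1 was lost without any 1 of 4 of the 6 mice compared (adjusted p = 0.0578 to 0.0863) and that of Isg15 without any 1 of 5 (adjusted p = 0.0883 to 0.169). Of the list calls on HF/HS in ConvR mice, those of Pomp, Psmg2, Tap1 and Ubqln1 were also lost without the 2 high acute-phase mice. There 1 ConvR chow mouse was left. The calls of Ufd1l, Ubqln2 and Isg15 between ConvD and GF livers and of Rps27a between ConvR and GF livers on HF/HS were lost when the length trend was removed (adjusted p = 0.0677 to 0.177). The lists were chosen with earlier results of these data known, and their counts are given as a description.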

How the data were processed

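Liver RNA of 15 mice was sequenced, and the deposited tables give for each gene an expected count, a TPM value and an FPKM value. Per the submitters' processing notes, the authors used Bowtie2, RSEM 1.2.23 and the build mm9, so that the deposited expected counts are RSEM estimates, not scaled between libraries, and the deposited TPM values are scaled by RSEM for length and depth. FPKM was not used. The members and gene lists were chosen with earlier results of these data known, and the counts of members are descriptions.

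Expected counts were rounded to whole numbers and fitted with edgeR 4.0.16 in R 4.3.3 (filterByExpr with a minimum count of 10, TMM scaling, all 15 libraries, 1 mean per group, 10 residual degrees of freedom, quasi-likelihood F test, Benjamini-Hochberg adjustment over 12377 genes). A gene was called at an adjusted p below 0.05. The SE is the log2 difference over the square root of F. Alternatives were DESeq2 1.42.0 (Wald test), its size factors in edgeR, no scaling factors, no filter, limma 3.58.1 on log2(TPM + 1), the replicate number as a block, the trend with gene length removed (lowess with a span of 0.5 per library, fitted on genes with a mean of at least 3 log2 CPM), and each library left out. The scripts were tested on simulated data.

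Named in detail were up to 6 called members per direction and comparison, or the 3 with the smallest p where none was called, the subunits Psmb5, Psmb6, Psmb7 and Psmb10 in each comparison, up to 5 called genes of the related lists per comparison, and Psmb8, Psmb9 and Nfe2l1. Psmd13, Psmc3, Psmb2, Psmd7 and the further called list genes (Ubqln1, Psmg2, Psmg3, Isg15, Tap1, and Irf1, Rps27a and Shfm1 on HF/HS) were added after their values were seen. A called gene of the related lists is not reported here. Replicates are separate mice, and no 2 libraries of a group agreed within counting noise (chi-square of at least 7.42 per degree of freedom over 15 pairs). RSEM's expected counts carry counting error, which weighs most on Psma8 and Psmb11.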

Additional observations from a re-analysis of the deposited data

How the results depend on the processing

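Counts of called members and their median log2 differences were recomputed under each alternative. Of 18 called values, 3 were kept in every one: Psmb4 in ConvD over GF livers on chow, and Psmb4 and Psmb5 on HF/HS in GF mice. For the genes followed by name, 772 of 1167 alternative values kept direction and side of the threshold, 387 lost the call, 3 gained it and 5 changed sign. The cause of these changes was not tested. Where a count of members below stands without that of all genes, no excess of members is read from it.

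For ConvR over GF livers on chow (2 called, median -0.15), DESeq2 called 5 and limma on log2(TPM + 1) called 6, with a median of -0.28. These 6 were all lower, and of 12377 genes limma called 777 lower and 160 higher. The replicate block left 0 members called, and removal of the length trend 1 with a median of -0.063. Without ConvR chow mice 1 and 2, which leaves 1 mouse in that group, the median was -0.026. For ConvD over GF livers (3 called, median -0.17), there was 1 call without normalization factors, 10 with DESeq2, 1 on TPM values with a median of -0.036, and 1 with the length trend removed, with -0.058. For ConvD over ConvR livers (2 called, median -0.03), 0 were called with DESeq2 size factors, without a filter, with the replicate block and with the length trend removed. Without ConvR chow mice 1 and 2 the median was -0.13. Without normalization factors 1 was called, upward, with a median of 0.071, and TPM values gave 13 with 0.25. For ConvR over GF livers on HF/HS no setting gave a call, and the median of -0.03 became 0.14 without normalization factors and 0.17 on TPM values.

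For HF/HS over chow in ConvR mice (4 called, median -0.07), TPM values gave 22 calls and a median of 0.32. The median was 0.12 without normalization factors, 0.0062 with the length trend removed and -0.18 without ConvR chow mice 1 and 2. For HF/HS over chow in GF mice (7 called, median -0.22), 4 were called without normalization factors, 4 without a filter, 14 with DESeq2, 2 on TPM values, 4 with the replicate block and 2 with the length trend removed, with a median of -0.045. The interaction (0 called, median 0.14) had a median of 0.365 without normalization factors and 0.02 without ConvR chow mice 1 and 2, and on TPM values 12 calls and 0.48.

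Changes of sign occurred in Psma4 on HF/HS in ConvR mice (0.072 on TPM values), Psma4 in ConvR over GF livers on HF/HS (0.014 on TPM values), Psmb1 in the same comparison (0.019 without normalization factors and 0.053 on TPM values), and Pomp on HF/HS in ConvR mice (0.088 on TPM values).

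With each library left out in turn, ConvR over GF livers on chow had 0 calls (without GF chow 1) to 10 (without ConvR chow 3), with medians of -0.22 to -0.09. ConvD over GF livers had 1 (without GF chow 1) to 9 (without GF chow 2), with -0.21 to -0.13. ConvD over ConvR livers had 0 to 3, with -0.08 to 0.03. ConvR over GF livers on HF/HS had 0 throughout, with -0.07 to -0.01. HF/HS over chow had 2 to 7 in ConvR mice, with -0.12 to 0.0014, and 2 to 11 in GF mice, with -0.25 to -0.16. The interaction had 0 throughout, with 0.07 to 0.21. The calls over all genes moved too, from 46 to 1655 for ConvR over GF livers and 79 to 962 for ConvD over GF livers on chow. They were 15 to 1611 for ConvD over ConvR livers and 16 to 459 for ConvR over GF livers on HF/HS. For HF/HS over chow they were 984 to 2597 in ConvR mice and 301 to 1440 in GF mice, and for the interaction 0 to 436.

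Replicate numbers did not pair the mice: same-numbered mice of different groups correlated at -0.23 to 0.25 in their deviations from the group means, and 2 of 30 such pairs exceeded 0.1. With the number as a replicate block, 0, 2, 0, 0, 3, 4 and 0 members were called in the 7 tests in the order above. Having 3 mice per group limits what can be called, as do low counts, most of all for Psma8 and Psmb11.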
